A study of Mus musculus with 10 samples.

Results

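The acinar identity transcription factors are 7 genes, Ptf1a, Rbpjl, Bhlha15, Nr5a2, Gata4, Gata6 and Creb3l1, described here in whole pancreas RNA of mice. They were taken by gene symbol from an array table in which 19938 genes had a transcript cluster of their own, and each of the 7 was represented by exactly 1 cluster. The arrays were Affymetrix Mouse Gene 1.0 ST, with probes spread over the length of each transcript, and 10 samples were measured. The tested animals (DKO, n = 5) carried PDX1Cre, Mst1-/- and Mst2L/L, so by genotype the hippo kinase MST1 was lost through a null allele that is not limited to the pancreas, and MST2 through a floxed allele only where Cre acted under the Pdx1 promoter. The 5 control samples are labelled Control with no further genotype, and both groups were of mixed background. Age and sex are not given in the labels, nor is it said that each array was from another animal, and the p-values reflect the spread of these arrays alone.

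Acinar cells make and store the digestive enzymes of the pancreas. Their identity rests on PTF1, a trimeric complex of the basic helix-loop-helix (bHLH) protein PTF1A, an E-protein such as TCF3 or TCF12, and either RBPJ, which also serves Notch signalling, or its acinar relative RBPJL. PTF1 with RBPJL is the form of mature acinar cells and drives the enzyme genes. BHLHA15, also called MIST1, is a bHLH factor that builds up the secretory machinery. NR5A2, GATA4 and GATA6 act upstream of or beside PTF1, and CREB3L1 is a membrane-bound factor of the secretory pathway. In mouse studies the Hippo kinases restrain the coactivators YAP and TAZ.

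All values are log2 intensities as deposited, on a common scale across arrays, and changes are DKO minus control. Array medians over all clusters were 7.12 to 7.14 in DKO and 7.14 to 7.15 in control, and the number of arrays limits the precision. The acinar enzyme genes Cela1, Cel, Prss2, Cpa1 and Ctrb1 averaged 13.24 to 13.37 in the DKO arrays and 13.34 to 13.44 in the control arrays, close to the array maxima of 13.77 to 13.94, so acinar RNA was abundant in every sample. In this bulk tissue, fewer acinar cells and less RNA per acinar cell cannot be told apart. DKO replicate 1 stood apart in liver transcripts: the mean of the 6 hepatocyte markers was 10.99 there, against 6.32 to 7.27 in the other DKO arrays and 6.39 to 7.16 in control. Results for the factors and for the related genes Copz2, Creb3 and Sox9 are therefore also given without it. Stk4, the gene of MST1, measured 5.13 ± 0.06 in DKO and 5.15 ± 0.09 in control (SD, n = 5 each; limma adjusted p = 0.884), a level at the 14.1 percentile of all genes that gave no check of the labels. Stk3, the gene of MST2, was not analysed here.

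Of the 7 factors, Rbpjl fell in DKO pancreas and none rose at an adjusted p of 0.05 (limma, Benjamini-Hochberg over all 19938 genes). Over all genes, 0.366% passed as lower and 2.08% as higher in DKO. The estimates of 6 of the 7 were below 0, which holds for 52.4% of all genes, and Gata4 was the exception. The 7 were measured in the same arrays and are not separate observations. The median change of the 7 was -0.17, against -0.0064 for the median of all genes tested. When p was left unadjusted, at a threshold of 0.05, Rbpjl and Bhlha15 were lower and none was higher, where 5.66% of all genes were lower and 9.18% higher.

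Rbpjl, the acinar DNA-binding subunit of PTF1, measured 11.10, 11.48, 11.54, 11.42 and 11.60 in DKO replicates 1 to 5, against 11.84, 11.79, 11.96, 11.88 and 11.94 in control replicates 1 to 5. Every DKO array lay below every control array, a separation in this direction that 1.28% of all genes showed. DKO replicate 1 was the lowest, and the control arrays spanned only 0.17 while the DKO arrays spanned 0.51. The group means were 11.43 ± 0.20 in DKO and 11.88 ± 0.07 in control (SD, n = 5 each), a log2 change of -0.45 ± 0.09 (SE; limma adjusted p = 0.0225) or 0.73 of the control level. Its 95% interval ran from -0.65 to -0.26. Without DKO replicate 1 the change was -0.37 (limma adjusted p = 0.0134). The call ended on leaving out control replicate 3 (limma adjusted p = 0.0689), on leaving out control replicate 5 (0.0608) and on leaving out DKO replicate 4 (0.0562), with changes of -0.43, -0.44 and -0.45. Rbpjl lies on chromosome 2, as Stk4 does, with 13 measured genes between them in the gene order of GRCm38.p6. None of those 13 passed the test (limma; 1 was higher and 0 were lower at an unadjusted p of 0.05), and among the 25 measured genes on either side of Stk4 Rbpjl was the only one past it. The part of the deleted locus in the Rbpjl result was not tested.

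Ptf1a, the bHLH subunit that gives the complex its name, had the widest interval of the 7 and did not pass the test. It measured 8.57, 9.63, 9.35, 8.55 and 9.61 in DKO replicates 1 to 5, against 8.95, 9.30, 9.58, 10.26 and 9.33 in control replicates 1 to 5. DKO replicates 1 and 4 lay below all control arrays, whereas the other 3 DKO arrays lay within the control range, so the groups overlapped. The change was -0.34 ± 0.28 (SE; limma adjusted p = 0.600), with a 95% interval from -0.96 to 0.28 that holds the change seen in Rbpjl as well as none. Without DKO replicate 1 it was -0.20, and over all arrays left out in turn it ranged from -0.48 to -0.15. Ptf1a had the largest SE of the 7 factors and the lowest rank by level, the 81.5 percentile of all genes, against 94.2 or above for the others.

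PTF1 binds a bipartite element, an E-box read by the PTF1A and E-protein pair beside a box read by RBPJ or RBPJL. The promoters of Rbpjl, which fell, of Ptf1a, and of Bhlha15 are shown so that these letters can be seen in place. RefSeq windows of GRCm38.p6, 250 bases before to 50 after a start, were found for 4 of the 7 factors (these 3 and Nr5a2). Capitals mark every E-box (CANNTG) and every RBPJ box (TGGGAA, or TTCCCA on the other strand), and each sequence runs 5′ to 3′ on the plus strand, which is the strand of these 3 genes.
Rbpjl, chr2:164402944-164403243: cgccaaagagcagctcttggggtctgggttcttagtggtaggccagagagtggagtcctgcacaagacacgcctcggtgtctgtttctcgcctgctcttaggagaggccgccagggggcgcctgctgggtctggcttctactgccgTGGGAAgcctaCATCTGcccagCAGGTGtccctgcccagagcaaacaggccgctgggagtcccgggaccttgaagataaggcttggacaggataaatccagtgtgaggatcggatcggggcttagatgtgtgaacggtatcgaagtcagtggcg
Ptf1a, chr2:19445413-19445712: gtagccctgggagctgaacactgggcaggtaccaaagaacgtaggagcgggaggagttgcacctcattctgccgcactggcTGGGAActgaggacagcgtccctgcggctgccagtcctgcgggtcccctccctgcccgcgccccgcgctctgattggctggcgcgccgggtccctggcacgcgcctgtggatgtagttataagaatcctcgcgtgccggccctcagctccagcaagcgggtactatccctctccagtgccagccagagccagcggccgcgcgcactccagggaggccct
Bhlha15, chr5:144190036-144190335: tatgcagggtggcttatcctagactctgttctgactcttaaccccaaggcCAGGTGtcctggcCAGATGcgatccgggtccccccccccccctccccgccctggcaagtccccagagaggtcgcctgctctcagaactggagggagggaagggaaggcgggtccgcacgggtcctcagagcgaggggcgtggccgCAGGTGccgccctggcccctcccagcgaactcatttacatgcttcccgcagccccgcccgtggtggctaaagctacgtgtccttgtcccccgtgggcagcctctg
The Rbpjl window held an RBPJ box at position -104 from the start, followed, after 5 and 16 bases, by the E-boxes CATCTG and CAGGTG. An E-box within 30 bases of an RBPJ box, at any such spacing and in either order, occurred in 6.97% of all 32851 promoter windows of this length. Such a pair is therefore not by itself a PTF1 site. The Ptf1a window held 1 RBPJ box and 0 E-boxes, and the Bhlha15 window 3 E-boxes and 0 RBPJ boxes. Over all windows 72.3% held an E-box and 25.6% an RBPJ box. The box GGAATG reads CATTCC on the other strand and is bound by the TEAD partners of YAP. It was in none of these 3 windows and in 14.7% of all windows. A window of Nr5a2, not printed here, held it at position -58 from the start. These are matches of letters only, and no binding was measured.

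**Figure D1:**
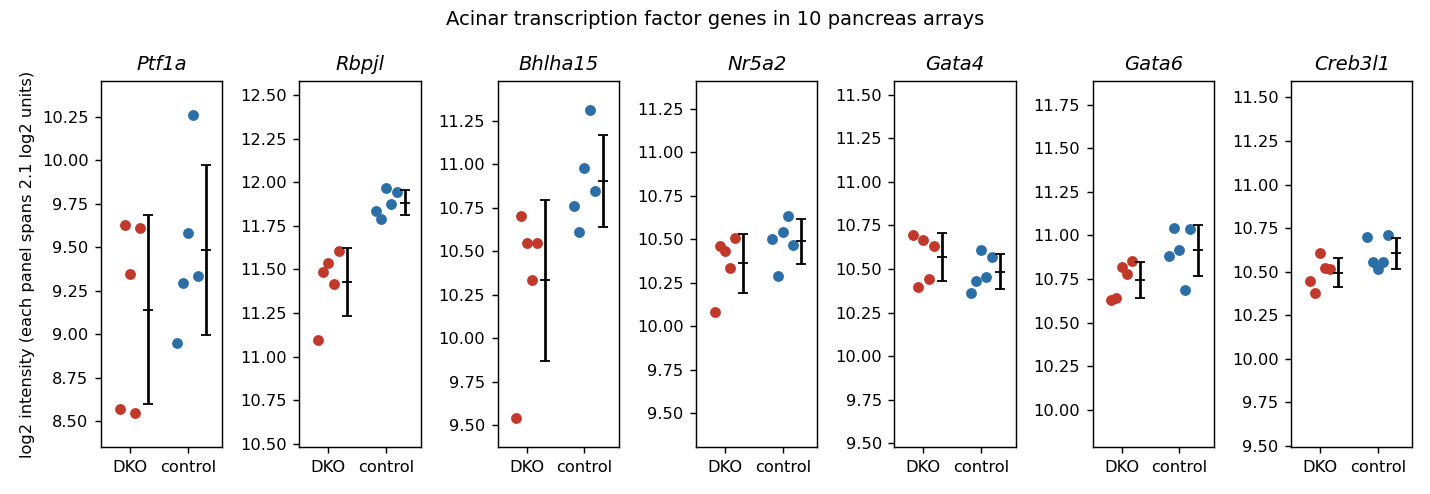
Log2 intensity of the 7 factor genes in each array, DKO (red, left) and control (blue, right), points in replicate order and bars showing mean ± SD (n = 5 each). Each panel spans 2.1 log2 units. The DKO and control points separate fully in Rbpjl, while Ptf1a and Bhlha15 have the widest scatter.

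Bhlha15 had the lowest estimate of the 7 and did not pass the test. It measured 9.54, 10.71, 10.55, 10.33 and 10.55 in DKO replicates 1 to 5, against 10.76, 10.61, 10.98, 11.31 and 10.85 in control replicates 1 to 5. Of the 5 DKO arrays 4 lay below the lowest control array, and all 5 lay below the control mean. The change was -0.57 ± 0.21 (SE), or 0.67 of the control level, with a 95% interval from -1.02 to -0.11 and a limma adjusted p of 0.225 over all genes. DKO replicate 1 was the lowest array by a wide gap, and without it the change was -0.37 (limma adjusted p = 0.217).

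Genes known from mouse studies to depend on Bhlha15 had estimates below control throughout, and 1 of the 5 passed the test. Over all genes, 52.4% of estimates were below 0 and 0.366% passed as lower. The median change of the 5 was -0.30, and all 5 had an unadjusted p under 0.05 by limma, against 5.66% of all genes in that direction. The list was short and was drawn up from general knowledge with earlier results of these data known. Copz2, a subunit of the COPI vesicle coat, fell. It measured 11.08, 11.14, 11.27, 11.12 and 11.28 in DKO replicates 1 to 5, against 11.38, 11.52, 11.64, 11.55 and 11.47 in control replicates 1 to 5. Its groups did not overlap, with DKO below control as in 1.28% of all genes. The change was -0.34 ± 0.06 (SE; limma adjusted p = 0.0178). Without DKO replicate 1 the change was -0.31 (adjusted p = 0.0456), and without control replicate 2 the call ended (adjusted p = 0.0526).

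The other 4 Bhlha15-dependent genes did not pass the test. Gjb1, the gap junction protein connexin 32 of acinar cells and hepatocytes, measured 8.18, 7.98, 7.85, 7.95 and 8.07 in DKO replicates 1 to 5, against 8.46, 8.23, 8.52, 8.58 and 8.17 in control replicates 1 to 5. Only DKO replicate 1, the array rich in liver transcripts, reached above the lowest control array. Its change was -0.39 ± 0.09 (SE; limma adjusted p = 0.0545), and it passed after quantile normalization again (-0.43, adjusted p = 0.0311), after subtraction of array medians (-0.43, 0.0330), without the dimmest 25% or 50% of genes and without control replicate 5. Rab26 and Rab3d, small GTPases of secretory vesicles, had changes of -0.30 and -0.23 (limma adjusted p = 0.107 and 0.251). Atp2c2, a calcium and manganese pump of the Golgi, had a change of -0.24 (adjusted p = 0.178).

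Copz2, the Bhlha15-dependent gene past the test, also had a promoter window with both kinds of box, printed here for comparison with that of Rbpjl and with the capitals used in the same way.
Copz2, chr11:96849626-96849925: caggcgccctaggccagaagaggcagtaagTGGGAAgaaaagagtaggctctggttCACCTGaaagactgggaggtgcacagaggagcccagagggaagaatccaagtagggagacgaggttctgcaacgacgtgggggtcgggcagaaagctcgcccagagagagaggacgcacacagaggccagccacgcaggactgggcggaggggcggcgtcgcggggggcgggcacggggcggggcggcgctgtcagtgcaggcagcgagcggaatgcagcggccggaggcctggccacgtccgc
In this window (plus strand of GRCm38.p6) the RBPJ box and the E-box CACCTG are 20 bases apart, against 5 and 16 for Rbpjl. The Copz2 window also holds the TEAD box GGAATG, which starts at base 17 after the start. It holds no CATATG, an E-box form bound by BHLHA15 that was in 3.91% of all windows. The pair was not limited to genes with lower estimates. A window of Rbpj, whose estimate was above control (0.10, limma adjusted p = 0.458), held an E-box and an RBPJ box 19 bases apart. A window of Gjb1 held both boxes farther apart, and that of Rab3d held neither.

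**Figure D2:**
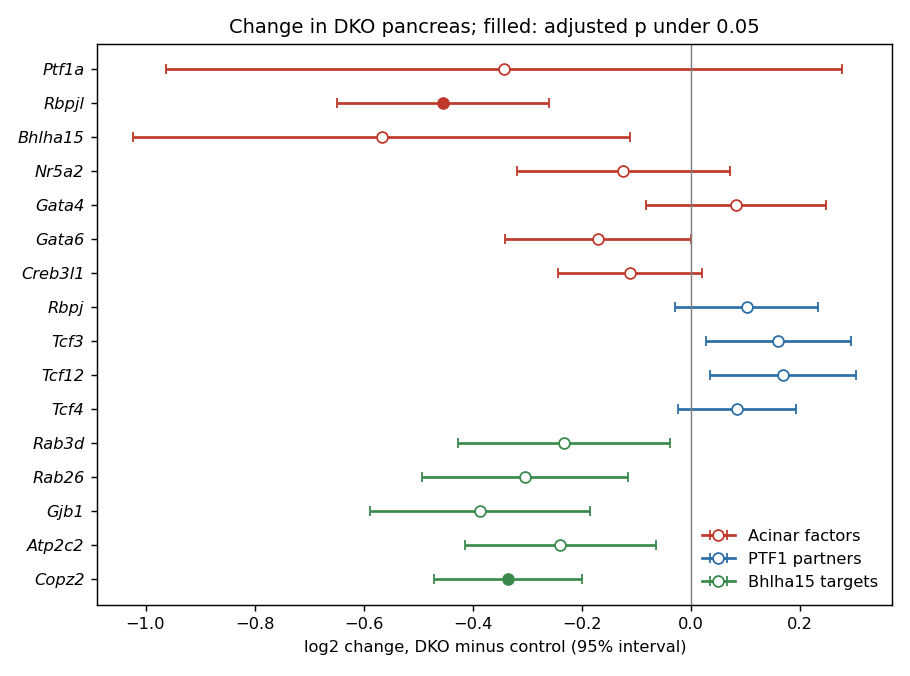
Log2 change, DKO minus control, with 95% intervals from limma (n = 5 each) for the 7 acinar factors (red), 4 PTF1 partners (blue) and 5 Bhlha15-dependent genes (green). Filled points passed an adjusted p of 0.05, which were Rbpjl and Copz2. The estimates of all 5 green genes lie below 0 and those of all 4 blue genes above 0.

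Nr5a2, a nuclear receptor that works with PTF1 on enzyme genes, did not pass the test. It measured 10.08, 10.46, 10.43, 10.34 and 10.51 in DKO replicates 1 to 5, against 10.50, 10.29, 10.54, 10.63 and 10.47 in control replicates 1 to 5. One array, DKO replicate 1, lay below all control arrays. The change was -0.12 ± 0.09 (SE; limma adjusted p = 0.541; 95% interval -0.32 to 0.07), and without that array -0.05.

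Gata4 and Gata6, zinc finger factors with overlapping roles in pancreas formation in mice, had small estimates of opposite sign, and neither passed. Gata4 measured 10.70, 10.40, 10.67, 10.44 and 10.63 in DKO replicates 1 to 5, against 10.36, 10.43, 10.61, 10.45 and 10.57 in control replicates 1 to 5. The groups overlapped over most of their range, and the change was 0.08 ± 0.07 (SE; limma adjusted p = 0.638; 95% interval -0.08 to 0.25). Gata6, which keeps acinar cells differentiated in adult mice, measured 10.63, 10.64, 10.82, 10.78 and 10.86 in DKO replicates 1 to 5, against 10.88, 11.04, 10.92, 10.69 and 11.04 in control replicates 1 to 5. All 5 DKO arrays lay below the control mean and 2 below the lowest control array. The change was -0.17 ± 0.08 (SE; limma adjusted p = 0.340), with a 95% interval of -0.34 to 0.0009.

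Creb3l1, a transcription factor held in the endoplasmic reticulum membrane until it is cut and released, measured 10.45, 10.38, 10.61, 10.52 and 10.52 in DKO replicates 1 to 5, against 10.70, 10.55, 10.51, 10.56 and 10.71 in control replicates 1 to 5. The groups overlapped, with 2 DKO arrays below the lowest control array. The change was -0.11 ± 0.06 (SE; limma adjusted p = 0.421; 95% interval -0.24 to 0.02), the narrowest interval of the 7 factors. Without DKO replicate 1 the changes of Gata4, Gata6 and Creb3l1 were 0.05, -0.14 and -0.10, and Rbpjl was again the 1 factor past the test.

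The arrays differed in how many factors were low. DKO replicate 1 was the lowest of all 10 arrays for 4 of the 7 factors (Rbpjl, Bhlha15, Nr5a2 and Gata6), and it lay above the control mean in Gata4. DKO replicate 4 had the lowest Ptf1a and was below the control mean in all 7. In the other DKO arrays 4 to 6 factors were below the control mean, and in the control arrays 1 to 6. The mean deviation of the 7 genes from the control mean was -0.53 in DKO replicate 1, -0.34 in DKO replicate 4 and -0.15 to -0.07 in the other 3 DKO arrays, against -0.11 to 0.14 in control. The Rbpjl decrease was present in all of the DKO arrays, at -0.28 to -0.78 from the control mean, whereas Nr5a2 was low mainly in DKO replicate 1, where liver transcripts were high. The part of the liver transcripts in that array's values was not tested. Hepatocytes also express Nr5a2 and Gata4.

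**Figure D3:**
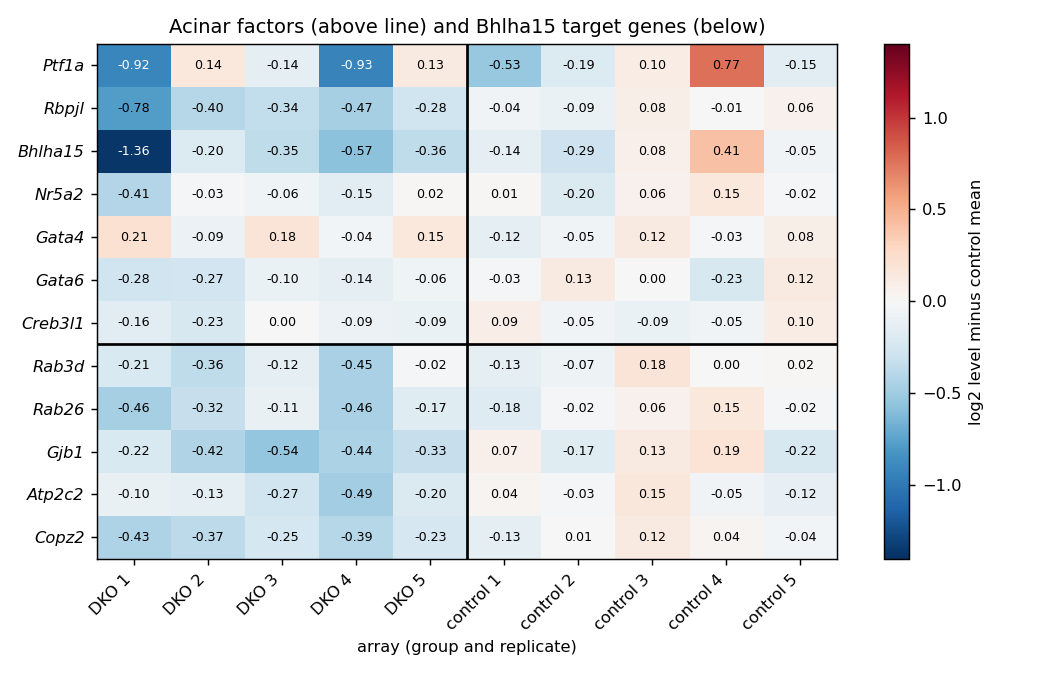
Level of each gene in each array minus its control mean (log2), DKO arrays left and control arrays right of the line, with the 7 factors above and the 5 Bhlha15-dependent genes below. Blue is lower and red higher than the control mean. Rbpjl, Bhlha15, Gata6 and all 5 Bhlha15-dependent genes are below the control mean in all 5 DKO arrays. DKO replicate 1 holds the lowest Bhlha15 value, -1.36.

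Partners and relatives of these factors, and genes that depend on them, were counted in lists, 71 measured of 80 genes in all. Across these lists, 1 gene (Copz2) passed the test as lower and 0 as higher by limma, where 0.366% and 2.08% of all genes did. At an unadjusted p of 0.05 there were 18 lower and 8 higher, where the shares of all genes were 5.66% and 9.18%, so the higher count was near the share of all genes. The 18 lower included 8 acinar secretory genes and the 5 Bhlha15-dependent genes. The partners of PTF1A and RBPJL were all above control in their estimates, and 0 of 4 passed. The E-protein genes Tcf12 and Tcf3 had changes of 0.17 ± 0.06 and 0.16 ± 0.06 (SE; limma adjusted p = 0.219 and 0.246). Rbpj, which takes the place of Rbpjl in the embryonic form of the complex, measured 9.35 ± 0.10 in DKO and 9.25 ± 0.07 in control (SD, n = 5 each). Its change of 0.10 ± 0.06 (SE) did not pass (limma adjusted p = 0.458), with a 95% interval from -0.03 to 0.23. Whether it differed from the change of Rbpjl was not tested. The Id genes, whose products bind E-proteins and keep bHLH factors off DNA, gave 0 of 4 past the test (limma; 0 at an unadjusted p of 0.05). Id4 had a change of -0.15 (limma adjusted p = 0.420) and Id2 of -0.04 (0.804).

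Among 9 GATA and NR5A relatives and cofactors 0 passed (limma; 3 lower at an unadjusted p of 0.05, against 5.66% of all genes). Zfpm1, the GATA cofactor FOG1, lay between 9.30 and 9.60 in DKO and between 9.71 and 10.01 in control. Its groups did not overlap, with DKO below control as in 1.28% of all genes. The change was -0.27 ± 0.08 (SE; limma adjusted p = 0.107). Nr0b2, the corepressor SHP and in liver a known target of NR5A2, lay between 7.97 and 8.74 in DKO and between 8.55 and 9.55 in control, with a change of -0.69 ± 0.21 (SE; limma adjusted p = 0.144). The third was Gata1, a factor of blood cells, at -0.49. Of 10 measured genes of the CREB3 family and the unfolded protein response 0 passed (limma). At an unadjusted p of 0.05 by limma 2 were higher, against 9.18% of all genes. The 2 were Ddit3, the stress factor CHOP, at 0.41 ± 0.13 (SE; limma adjusted p = 0.164) and Creb3 at 0.22 ± 0.09 (0.275). Without DKO replicate 1 the change of Creb3 was 0.17. Xbp1, the splice-activated factor on which acinar secretory capacity depends, measured 12.47 ± 0.15 in DKO and 12.42 ± 0.17 in control (SD, n = 5 each).

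Of 13 measured transcription factors of the gut endoderm and pancreatic progenitors 0 passed (limma; 4 higher and 2 lower at an unadjusted p of 0.05). At that threshold 9.18% of all genes were higher and 5.66% lower. Foxa1, a pioneer factor of endodermal enhancers, had a change of 0.40 ± 0.12 (SE; limma adjusted p = 0.138), and Sox9, a factor of ducts and progenitors, of -0.26 ± 0.08 (0.149). Without DKO replicate 1 the change of Sox9 was -0.18. The genes that PTF1 serves, acinar enzymes and other secretory products, were below control in 23 of 26 estimates, against 52.4% of all genes, with a median change of -0.07. None of the 26 passed by limma. At an unadjusted p of 0.05 by limma, 8 were lower and 0 higher, against 5.66% and 9.18% of all genes. The 8 included Ctrc (-1.94), which was high only in control replicates 2 and 3 (12.41 and 12.33). It lay between 7.92 and 8.60 in the other control arrays and between 7.50 and 8.38 in DKO. Of the 26, 6 had DKO arrays all below control, against 1.28% of all genes. Cpa1 was barely separated, with 13.5887 in the highest DKO array and 13.589 in the lowest control array (change -0.04, limma adjusted p = 0.625). For Cela3b these were 13.52 and 13.54. The 26 genes were measured in the same arrays and are not separate observations. Cela3a, an elastase of a family with near-identical members, had a change of -0.20 ± 0.05 (SE; limma adjusted p = 0.0726). The lipase-related Pnliprp2 had one of -0.36 ± 0.10 (0.104). It lay at -0.76 from the control mean in DKO replicate 1, the array rich in liver transcripts. In the other DKO arrays it lay at -0.36 to -0.14. Many of these genes lie close to the top of the scale.

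Markers of other cells were read beside the factors. The mean of the 6 measured duct markers was 9.98 to 10.22 in DKO and 9.62 to 9.79 in control, with Krt7 and Krt19, keratins of duct epithelium, higher by 1.22 and 0.41 (limma adjusted p = 0.00112 and 0.0155). The list was mixed, with 4 estimates above 0 and 2 below. The 2 were Muc1, a mucin of epithelial surfaces, at -0.03 and Sox9, the duct factor described above, whose DKO arrays all lay below control and which did not pass (-0.26, limma adjusted p = 0.149). No other marker list had a gene past the test. The means of 5 islet markers were 11.88 to 12.01 in DKO and 12.03 to 12.30 in control, so these too did not overlap. Those of 8 fibroblast and stellate cell markers (10.32 to 10.48 in DKO and 10.23 to 10.54 in control), 4 mesothelial markers (9.19 to 9.74 and 9.08 to 9.84) and 4 endothelial markers (9.29 to 9.54 and 9.35 to 9.55) overlapped, and these cells also use Gata4, Gata6 or Creb3l1. The part of duct and islet cell numbers in the fall of Rbpjl was not tested.

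For each factor, the 3 genes were sought whose deviations from the group means were most like its own over the 10 arrays, out of all 19938 genes. With so many genes and so few arrays, high values of Pearson's r are found for any gene, and they describe these arrays only. Among the factors themselves, r was 0.59 to 0.94 for pairs of Ptf1a, Rbpjl, Bhlha15 and Nr5a2. Pairs with Gata4, Gata6 or Creb3l1 had r from -0.31 to 0.49. The nearest to Rbpjl were Lsm11, Tmem230 and Ccbe1 (r = 0.96, 0.95 and 0.93), and the nearest to Ptf1a were Edaradd, Foxa2 and Dynll2 (0.98, 0.97 and 0.96). Those nearest to Bhlha15 were Uqcr11, Ero1b, an oxidase of protein folding in secretory cells, and Gatm, an enzyme of creatine synthesis (0.99, 0.98 and 0.96). Nr5a2 was nearest to Cog6, Trmt12 and Dpp8 (0.99, 0.96 and 0.96), Gata4 to Osbpl3, Plcl1 and Tesc (0.98, 0.96 and 0.94), Gata6 to Lacc1, Sem1 and Adamtsl4 (0.97, 0.95 and 0.95), and Creb3l1 to Gdf10, Nefl and Itga11 (0.96 each). None of these 21 genes passed the test between the groups by limma, the smallest adjusted p being 0.0511 for Osbpl3.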

How the data were processed

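Total RNA of whole pancreas was isolated with RNeasy columns, per the labels' protocols, and copied, amplified and labelled with biotin for the arrays. The log2 intensities deposited by the authors, 1 per transcript cluster and sample, came from Affymetrix Expression Console, per the submitters' processing notes, and neither its version nor its normalization method is stated in the labels. They were used as deposited.

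Of 35556 clusters, 21789 had 1 gene symbol, and the brightest over all 10 arrays stood for its gene, which gave 19938 genes. DKO was set against control in R 4.3.3 by a moderated linear model of the package limma 3.58.1 (two-sided, 10.96 total degrees of freedom), with Benjamini-Hochberg adjustment over all genes, a threshold of 0.05 and 95% intervals. The fit was also run on simulated data, drawn independently for each gene and array, and no result here rests on that run. Named are all 7 factors, and in each list the genes past the threshold or the 2 with the smallest p. Gata1, Rbpj, Xbp1, Ctrc and the other Bhlha15-dependent genes were named after their values were seen. Members and lists were chosen with earlier results of these data known. Titles share replicate numbers, and the labels do not say whether these pair the arrays. Deviations of same-numbered arrays had r from -0.27 to 0.29 over genes, which cannot show whether there are pairs.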

Additional observations from a re-analysis of the deposited data

Results flagged for a closer look

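None of the 7 factors had an array set apart from its group by Dixon's criterion for 5 samples. Among 17 related genes examined, 4 values met it out of 34 groups of arrays, where chance gives about 1 in 20. Rbpj, Gata1, Xbp1 and Ctrc were not examined in this way. Zfpm1, the GATA cofactor, stood at 9.30 in DKO replicate 4, below the other 4 DKO arrays (9.57 to 9.60), and at 10.01 in control replicate 4, above the other 4 control arrays (9.71 to 9.79). Foxa1 stood at 7.43 in DKO replicate 2, above the other DKO arrays (6.77 to 6.93). Sox9 stood at 10.16 in DKO replicate 1, where liver transcripts were high, below the other DKO arrays (10.51 to 10.59).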

How the results depend on the processing

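Over 22 alternatives, none of the 7 factors changed the sign of its estimate, and no factor other than Rbpjl changed its side of the threshold. Rbpjl lay past it in the deposited values, after quantile normalization again and after subtraction of array medians. It also did so without the dimmest 25% or 50% of genes, with trended and robust variance and with array weights. The same held with mean or separate clusters and with the Xist level as a covariate. Over these settings the limma adjusted p ran from 0.0123 to 0.0290. Rbpjl has 1 cluster, so mean or separate clusters left its own values unchanged. Its call ended with unmoderated variance (-0.45, adjusted p = 0.0664) and when both control replicate 2 and DKO replicate 4 were left out (-0.47, adjusted p = 0.105), and the count of factors past the test was then 0. With the replicate block the change was also -0.45 and the call ended (limma adjusted p = 0.0552, count 0). The labels do not say whether the titles' numbers pair the arrays. Leaving out 1 array gave -0.50 to -0.37 (adjusted p from 0.0134 to 0.0689) and counts of 0 to 1 lower and 0 higher.

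In the related lists, 3 genes were lower after quantile normalization and without the dimmest 50% of genes, 2 after subtraction of medians and without the dimmest 25%, and 0 with the replicate block or when both of those arrays were left out. Leaving out 1 array gave 0 to 2 lower and 0 to 1 higher genes, the latter being Ddit3 without control replicate 4 (adjusted p = 0.0402). Id2 ranged from -0.0819 to 0.0065, positive without control replicate 1. The causes were not tested. No factor has a second cluster, so none could be tried.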
